A study of Mus musculus with 4 samples.

Results

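The glycolysis and hypoxia response genes are 45 genes chosen by function: glucose transporters, the enzymes of glycolysis, lactate dehydrogenases and monocarboxylate transporters, kinases that set glycolytic flux, the hypoxia-inducible factors (HIF) with their oxygen sensors, and genes known as HIF targets. All 45 were among the 25239 gene symbols counted, and all 45 passed the filter on low counts that left 13919 genes to test. They were examined by RNA-Seq in lung tumor-infiltrating CD4+ T cells of C57BL/6 mice, with 2 biological replicates per genotype according to the series, called here by their labels the WT-labelled and KO-labelled libraries (KO for CD4/ALK4-KO). CD4/ALK4-KO mice carry the genotype CD4CreERT2+/-/Acvr1bfl/fl, in which tamoxifen switches on a Cre recombinase driven by the *Cd4* promoter and so removes *Acvr1b*, the gene of the activin-A type I receptor ALK4, from cells that use that promoter. According to the methods the mice were males of 8 to 10 weeks, tamoxifen was given in 5 doses of 75 mg/kg, and 500000 LLC-OVA cells (Lewis lung carcinoma cells that make ovalbumin) were injected intravenously on the day of the last dose. Lungs were taken on days 18 to 22 by the labels and on days 16 to 20 by the methods. Whether WT mice received tamoxifen, whether they carried either modified allele and whether animals were pooled for a library is not given in the sources used here. The purpose of the comparison was to see how CD4+ T cells that cannot respond to activin-A differ from those that can.

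Cells split glucose into pyruvate by glycolysis and can pass the pyruvate on to mitochondria or reduce it to lactate, which leaves the cell through monocarboxylate transporters. T cells raise glycolysis when they are activated, and the step that commits sugar to the pathway is controlled by phosphofructokinase and by the PFKFB enzymes that make its activator. When oxygen is short, the prolyl hydroxylases encoded by the *Egln* genes no longer mark HIF for destruction by VHL, and HIF with its partner ARNT then binds near genes for glucose uptake, glycolysis, pH control, collagen processing and mitochondrial turnover.

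ACGTG is a core sequence that HIF recognizes, and it was the only form searched for and marked. Shown here are 5 promoters with these letters, chosen so that genes of each direction are among them. The 160 bases before a RefSeq start site (build GRCm38.p6) are given 5′ to 3′ along the gene for *Ldha*, *Pgk1* and *Bnip3*, which were lower in the KO-labelled libraries, for *Slc16a3*, which did not pass the test, and for *Pfkfb3*, which was higher. Capitals mark ACGTG on either strand (CACGT when read along the gene), and where both strands match at one place the capitals read CACGTG, which is also the E-box bound by MYC and related factors. For *Ldha* and *Pfkfb3*, which have 2 RefSeq start sites each, the one whose stretch holds CACGTG was chosen. The window of the other start had no match for *Ldha* and 1 for *Pfkfb3*. The last few bases of the *Bnip3*, *Slc16a3* and *Pfkfb3* stretches lie in the first exon of a transcript in GENCODE.
*Ldha*, chr7:46845644-46845803, plus strand: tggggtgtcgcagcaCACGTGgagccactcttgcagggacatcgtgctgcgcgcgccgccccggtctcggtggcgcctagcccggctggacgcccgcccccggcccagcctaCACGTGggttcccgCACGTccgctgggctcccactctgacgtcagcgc
*Pgk1*, chrX:106186940-106187099, plus strand: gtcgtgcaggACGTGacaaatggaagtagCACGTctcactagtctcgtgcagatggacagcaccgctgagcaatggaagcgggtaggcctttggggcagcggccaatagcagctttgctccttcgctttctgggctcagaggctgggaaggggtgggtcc
*Bnip3*, chr7:138909507-138909666, minus strand: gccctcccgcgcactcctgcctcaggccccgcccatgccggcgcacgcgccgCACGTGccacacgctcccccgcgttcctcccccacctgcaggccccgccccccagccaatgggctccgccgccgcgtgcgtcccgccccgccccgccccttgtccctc
*Slc16a3*, chr11:120948907-120949066, plus strand: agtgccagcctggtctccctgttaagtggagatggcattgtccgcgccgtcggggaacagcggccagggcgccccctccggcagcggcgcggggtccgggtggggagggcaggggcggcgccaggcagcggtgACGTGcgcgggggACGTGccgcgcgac
*Pfkfb3*, chr2:11502091-11502250, minus strand: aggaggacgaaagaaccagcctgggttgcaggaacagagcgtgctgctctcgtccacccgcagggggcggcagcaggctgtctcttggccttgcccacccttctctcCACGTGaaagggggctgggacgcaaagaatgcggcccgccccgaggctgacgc

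*Ldha* held 3 such sites in this stretch, *Pgk1* and *Slc16a3* held 2 each, and *Bnip3* and *Pfkfb3* 1 each. Promoter windows from 250 bases before to 50 bases after the start were at hand for 40 of the 45 genes, and 27 of these 40 (67.5%) held the letters in at least 1 window, beside 21.8% of all 27025 symbols with a window. Of single windows, 31 of 58 held them (53.4%), beside 19.6% of all 32851 windows, and CACGTG stood in 7.2% of all windows. Among the 15 genes that were lower, 12 had a match, among the 3 higher genes with a window 2 had one, and among the 22 others with a window 13 had one, so the letters occurred in genes of every direction. A match of 5 letters is a description of the window and not a HIF site.

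The libraries held 13869889 and 13943237 (WT-labelled) and 11959487 and 11823908 (KO-labelled) counts. *Acvr1b* (chromosome 15, 101174067 to 101213684, GRCm38), the targeted gene, had 426 and 342 counts against 322 and 445 (log2 fold change 0.16, SE 0.24, adjusted p = 0.66), so it did not separate the labelled genotypes. These counts cover the whole gene and all cells in the RNA, so they cannot show whether the gene was removed in T cells. *Cd4* was 6.13-fold higher in the KO-labelled libraries. All 7 genes of the T cell receptor complex and its proximal signaling rose, from a summed 265.4 to 304.4 CPM (counts scaled to a common library size) to 1402 to 1510 CPM, and so did all 8 further helper T cell genes and all 6 B cell genes. Markers of other cells were present in every library. Macrophage genes summed to 6774 and 7631 CPM against 6662 and 6416 CPM, with 1 of 12 higher. Neutrophil genes summed to between 981.2 and 1588 CPM, with 2 of 10 higher. Fibroblast genes summed to 6712 and 7307 CPM against 4773 and 3965 CPM, with 4 of 7 lower, and lung epithelial genes to 996.4 and 970.3 CPM against 646.2 and 511.3 CPM, with 5 of 9 lower and 2 higher. Endothelial genes summed to 53.6 to 135.1 CPM, with 1 of 6 in each direction. *Rhox5* and *Plac1* are genes of the germline and placenta that normal lung and T cells lack. They summed to 318.4 and 362.2 CPM against 42.1 and 50.3 CPM, while *Rhox6* and *Rhox9* of the same list were at 0. In bulk RNA, fewer cells of a type and less RNA per cell cannot be told apart, and the part of these markers in the results that follow was not tested.

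**Figure D1:**
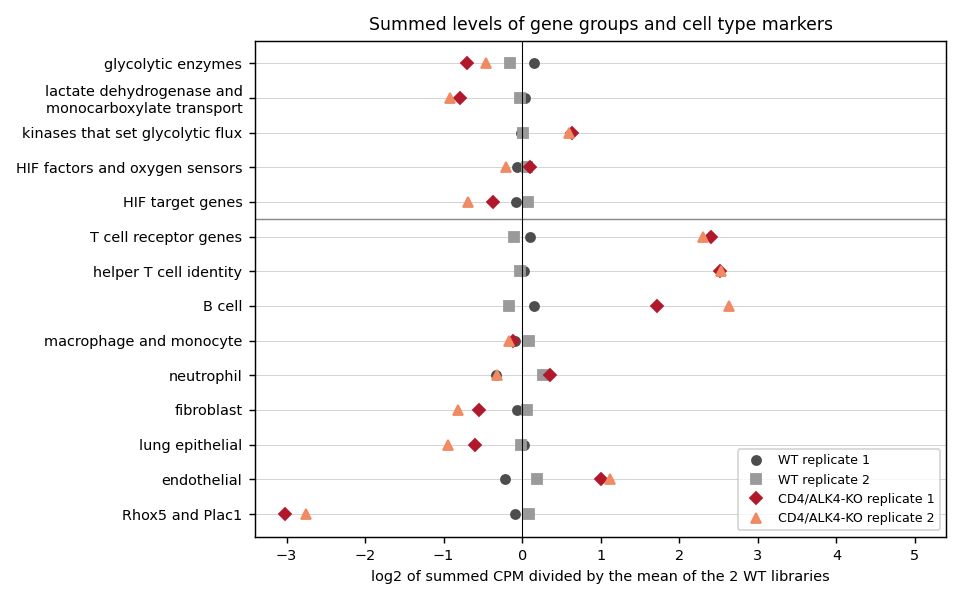
Summed CPM of each role group of glycolysis and hypoxia genes (above the line) and of cell type marker lists (below it) in the 4 libraries, as log2 of the sum divided by the mean of the 2 WT-labelled libraries. The T cell receptor genes lie above 2 in both KO-labelled libraries, *Rhox5* and *Plac1* lie below -2, and the glycolytic enzymes, lactate dehydrogenase and transport genes and HIF target genes lie below 0 there.

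Of the 45 genes, 15 were lower and 5 higher in the KO-labelled libraries (edgeR's quasi-likelihood test, adjusted p under 0.05, 2 libraries per genotype), and 25 did not pass. Of the 20 calls, 8 held whichever library was left out, and the others are named at the end with their values. Over all genes tested, 15.4% were lower and 17.4% higher, so the lower share of these genes (33.3%) stood above the background and the higher share (11.1%) below it. The genes were chosen with earlier results of these data known, so the shares are a description. The median log2 fold change of the 45 genes was -0.18, beside -0.0082 over all genes tested. Together they took 1.38% and 1.22% of all counts in the WT-labelled libraries and 0.907% and 0.97% in the KO-labelled ones. When the libraries were scaled to the T cell receptor genes instead, the median of all genes shifted by -2.4. On that scale 44 of the 45 genes were lower and *Slc16a5* alone was higher, beside 12986 lower and 27 higher of 13919 genes tested. Directions below are therefore relative to total RNA counts and not to T cell transcripts.

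**Figure D2:**
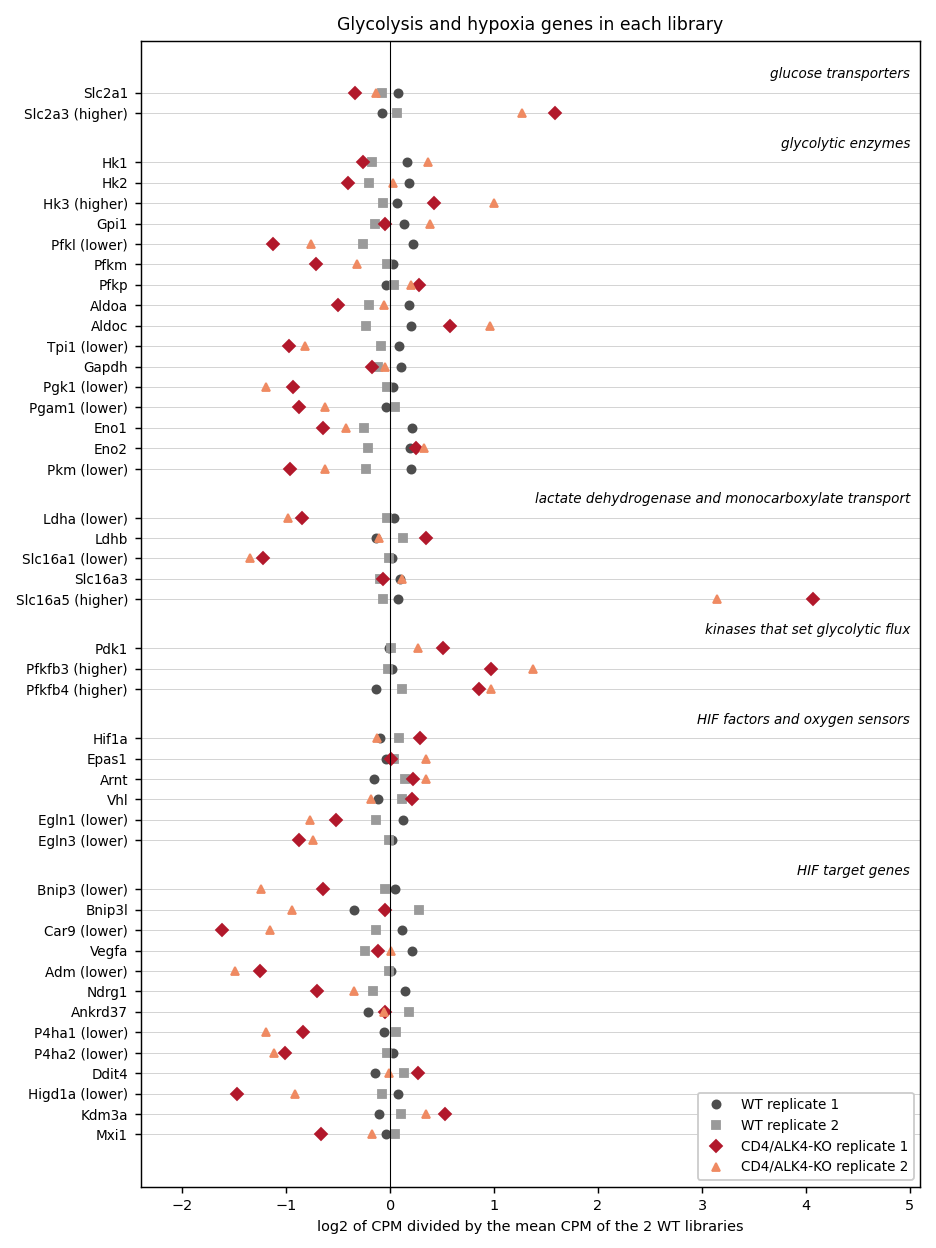
Each of the 45 genes in each library, as log2 of its CPM divided by the mean CPM of the 2 WT-labelled libraries, ordered by role. Words after a name give the call at an adjusted p under 0.05. The KO-labelled points of *Slc16a5*, *Slc2a3* and *Pfkfb3* lie to the right of the WT-labelled ones, and those of *Adm*, *Slc16a1*, *Higd1a* and *Pgk1* to the left.

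Of the 2 glucose transporters, 1 rose and the other did not pass the test. *Slc2a3* (chromosome 6, 122727809 to 122801640), which encodes the high-affinity neuronal-type transporter GLUT3, had 399 and 436 counts in the WT-labelled libraries and 1096 and 912 in the KO-labelled ones. It rose 2.7-fold (log2 fold change 1.44, SE 0.22, adjusted p = 3.9e-05), with no overlap between the groups, although on the scale of T cell receptor genes its value was -0.93. *Slc2a1*, encoding the widely expressed GLUT1 and a classical HIF target, had 3561 and 3158 counts against 2330 and 2765 and did not pass the test (log2 fold change -0.23, SE 0.22, adjusted p = 0.44). Per length, *Slc2a1* stayed the more abundant of the pair, at 70.4 ± 5.32 RPKM (CPM per kilobase of exon, mean ± SD, n = 2) against 4.23 ± 0.304 RPKM for *Slc2a3* in the WT-labelled libraries. The share of *Slc2a3* in the summed level of the pair went from 5.14% and 6.26% to 18.5% and 13.8%.

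Among the 16 glycolytic enzymes, 5 fell (31.2%) and 1 rose (6.25%), beside 15.4% lower and 17.4% higher of all genes tested. The median log2 fold change of the enzymes was -0.22. The lower enzymes stood at scattered steps of the pathway. *Pfkl*, the liver-type phosphofructokinase, had 2520 and 1774 counts against 860 and 1150, and fell by 0.93 on the log2 scale (SE 0.23, adjusted p = 0.0032). *Tpi1* (chromosome 6, 124810586 to 124814296), the triosephosphate isomerase that interconverts the products of aldolase, went from 12707 and 11113 counts to 5284 and 6134, a fall by 0.89 (SE 0.21, adjusted p = 0.0024). In both genes each KO-labelled library lay below each WT-labelled one.

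*Pgk1* (chromosome X, 106187100 to 106203699), the kinase of the first ATP-yielding step and the gene with 2 ACGTG sites in the stretch shown above, had 14212 and 13467 counts in the WT-labelled libraries and 6329 and 5470 in the KO-labelled ones. Its fall by 1.06 (SE 0.21, adjusted p = 0.00052) was the largest among these enzymes. *Pgam1*, the phosphoglycerate mutase next in the pathway, had 1223 and 1283 counts against 596 and 736 and fell by 0.75 (SE 0.22, adjusted p = 0.01). *Pkm* (chromosome 9, 59656368 to 59679375), the pyruvate kinase of the last step, was counted most often of the 45 genes beside *Ldha*, with 36693 and 26882 against 14219 and 18602, and fell by 0.79 (SE 0.21, adjusted p = 0.006). The WT-labelled replicates differed more in *Pkm* and *Pfkl* than in *Pgk1*, and replicate 1 was the higher in both.

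*Hk3*, a hexokinase of myeloid cells, was the enzyme that rose, from 631 and 566 counts to 699 and 1086 (log2 fold change 0.74, SE 0.23, adjusted p = 0.017), and its value was -1.6 on the scale of T cell receptor genes. The neutrophil marker *Csf3r* (log2 fold change 1.05) and the macrophage marker *Csf1r* (0.7) also passed as higher. *Cxcr2*, a neutrophil marker too, passed at 0.76 although its groups overlapped, with 36 and 56.4 CPM against 100.9 and 55.2 CPM, and KO-labelled replicate 2, the higher library for *Hk3*, was the lower one for *Cxcr2*. The other 8 neutrophil and 11 macrophage genes did not pass. The median log2 fold change was 0.47 over the neutrophil list but -0.26 over the macrophage list, so *Csf1r* does not stand for its list. The part of myeloid cells in the *Hk3* value was not tested. *Hk1* (1009 and 788 counts against 655 and 1047) and *Hk2* (1088 and 826 against 630 and 881) overlapped between the groups.

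Of the other enzymes, *Aldoc* and *Eno1* came nearest to the threshold. *Eno1*, the main enolase, had 14467 and 10378 counts against 6914 and 8387 and a log2 fold change of -0.53 (SE 0.22, adjusted p = 0.064, or 0.036 with upper quartile scaling). *Aldoc*, an aldolase form known best from brain, had 114 and 83 counts against 129 and 174 (log2 fold change 0.79, SE 0.31, adjusted p = 0.057). *Aldoa*, the main aldolase, had 10309 and 7816 counts against 5577 and 7881, so the groups overlapped. *Gpi1* (0.18), *Pfkp* (0.24), *Pfkm* (-0.5) and *Eno2* (0.29) had log2 fold changes with adjusted p-values between 0.14 and 0.6. *Gapdh*, often used as a reference gene, had 765 and 647 counts against 545 and 616 (log2 fold change -0.12, SE 0.22, adjusted p = 0.73). Its level of 12.5 ± 1.37 RPKM in the WT-labelled libraries was far under the 452.9 ± 13.1 RPKM of *Pgk1*, although both enzymes act in the same chain.

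The counts of several of these genes depend on how reads that match more than 1 place were handled. HTSeq leaves such reads out by default, and of all 75-base stretches (the read length) in the transcripts of *Pgk1*, 52.8% also occurred in transcripts of other genes. The share was 34.9% for *Pgam1*, 34.4% for *Bnip3*, 23% for *Eno1*, 22.6% for *Gapdh*, 22% for *Higd1a*, 17.8% for *Pkm* and 16.9% for *Bnip3l*, but 2.7% for *Ldha*, 1.3% for *Tpi1* and 0 for *Slc16a1* and *Pfkl*. Levels per length of the former genes are therefore uncertain and may be too low. The shared stretches of *Gapdh* occurred in 121 other genes and those of *Pgk1* in 4, and the reads lost by each gene were not measured. The library kit does not mark strand, and exons of another gene overlapped 26.4% of the exon bases of *Ankrd37*, 22.5% of *Higd1a*, 22.3% of *Bnip3* and 15.3% of *Pkm*.

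At the lactate step, *Ldha* (chromosome 7, 46841475 to 46855627), the lactate dehydrogenase subunit that favors pyruvate reduction and the gene with 3 ACGTG sites above, had 32470 and 30537 counts in the WT-labelled libraries and 15260 and 14495 in the KO-labelled ones. It fell by 0.91 on the log2 scale (SE 0.2, adjusted p = 0.0011) and had the highest level per length of the 45 genes, 698.9 ± 23.9 RPKM in the WT-labelled libraries and 371 ± 23.1 RPKM in the KO-labelled ones. *Ldhb*, the subunit that favors lactate oxidation, had 868 and 1028 counts against 1052 and 801, and its groups overlapped (log2 fold change 0.14, adjusted p = 0.69).

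Of the 3 monocarboxylate transporters, 1 fell, 1 rose and 1 did not pass the test. *Slc16a1* (chromosome 3, 104638668 to 104658462), encoding MCT1, had 5242 and 5082 counts against 1930 and 1833 and fell by 1.29 (SE 0.22, adjusted p = 9.8e-05). *Slc16a3*, encoding the lactate exporter MCT4 of glycolytic cells, had 1576 and 1365 counts against 1228 and 1442 and did not pass the test (log2 fold change 0.03, SE 0.21, adjusted p = 0.94). *Slc16a5* (chromosome 11, 115462474 to 115474398), a further member of the transporter family, went from 19 and 17 counts to 263 and 144, a 12.7-fold rise and the largest change of the 45 genes (log2 fold change 3.66, SE 0.4, adjusted p = 4.1e-07). It was still higher on the scale of T cell receptor genes, at 1.3 (adjusted p = 0.0056). Its level stayed low, at 4.56 ± 1.99 RPKM in the KO-labelled libraries against 35.1 ± 2.19 RPKM for *Slc16a1*. *Bsg*, the chaperone that brings MCT1 and MCT4 to the membrane, fell by 0.81 (SE 0.22, adjusted p = 0.007), from 6938 and 5711 counts to 2937 and 3511.

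All 3 kinases that set glycolytic flux had positive log2 fold changes, 2 passed the test, and each was negative on the scale of T cell receptor genes. *Pfkfb3* (chromosome 2, 11471433 to 11554077), which makes the activator of phosphofructokinase and is itself a HIF target, had 521 and 501 counts in the WT-labelled libraries and 876 and 1196 in the KO-labelled ones (log2 fold change 1.18, SE 0.22, adjusted p = 0.00032). *Pfkfb4*, its relative, had 198 and 231 counts against 341 and 382 (0.92, SE 0.26, adjusted p = 0.0084). *Pdk1*, the kinase that keeps pyruvate out of mitochondria, had 2047 and 2043 counts against 2539 and 2234 (0.39, SE 0.21, adjusted p = 0.17). The 2 PFKFB genes, both known to respond to HIF in other cells, thus stood on the opposite side from *Pgk1* and *Ldha*.

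**Figure D3:**
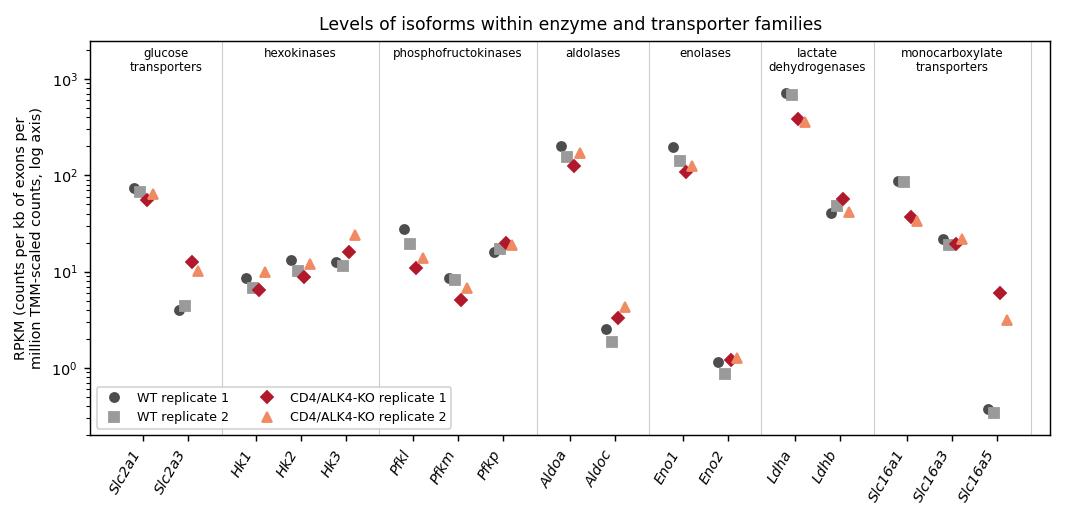
Level of each form of 7 enzyme and transporter families in each library, in RPKM on a log axis, so that genes can be compared per length of exon. *Ldha*, *Pfkl* and *Slc16a1* are lower in the KO-labelled libraries, and *Slc2a3*, *Hk3* and *Slc16a5* are higher.

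Ratios of paired forms within a library do not depend on scaling between libraries. With 2 libraries against 2 an exact two-sided permutation test cannot give a p under 0.33, so these 15 ratios are a description. *Slc16a5* to *Slc16a1* had log2 ratios of counts of -8.07 and -8.18 in the WT-labelled libraries and -2.87 and -3.67 in the KO-labelled ones, a 29-fold shift. *Slc2a3* to *Slc2a1* went from -3.16 and -2.86 to -1.09 and -1.6, and *Slc16a3* to *Slc16a1* from -1.73 and -1.9 to -0.65 and -0.35. In each of these pairs the groups did not overlap and the form with the lower count was the one that gained.

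*Ldhb* to *Ldha* moved from -5.22 and -4.89 to -3.86 and -4.18, a difference of 1.04. *Pfkp* to *Pfkl* moved from 0.23 and 0.8 to 1.89 and 1.46, a difference of 1.16, and *Pfkm* to *Pfkl* by 0.41. The ratios *Aldoc* to *Aldoa* (1.06), *Eno2* to *Eno1* (0.82) and *Hk3* to *Hk1* (0.65) moved the same way, while *Hk2* to *Hk1* moved by -0.24. None of these left an overlap between the groups. In the remaining pairs the groups overlapped, with differences for *Egln3* to *Egln1* of -0.17, *Epas1* to *Hif1a* of 0.09, *P4ha2* to *P4ha1* of -0.05, *Pfkfb4* to *Pfkfb3* of -0.25 and *Bnip3l* to *Bnip3* of 0.48.

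**Figure D4:**
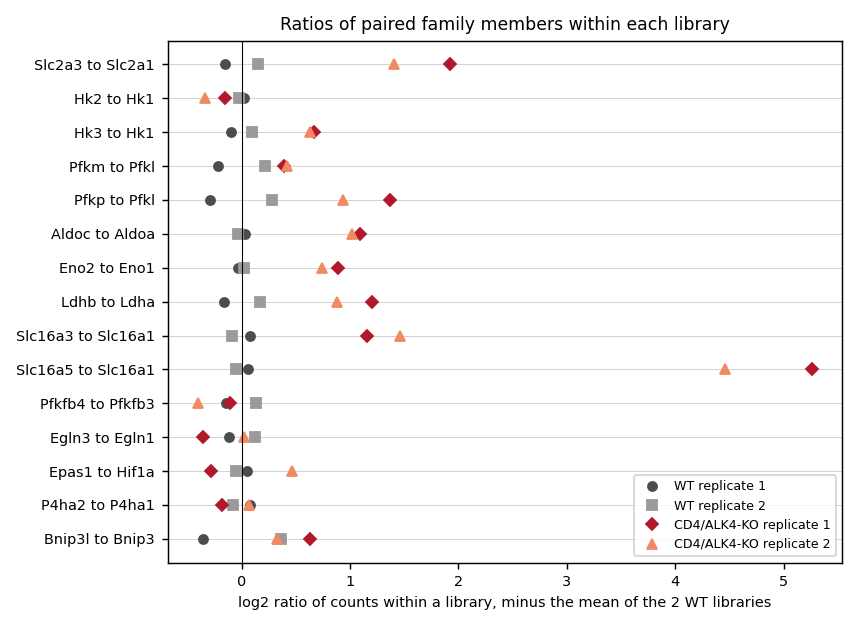
Log2 ratio of the counts of 2 related genes within each library, shown as the distance from the mean of the 2 WT-labelled libraries, for 15 pairs. The *Slc16a5* to *Slc16a1* ratio lies farthest to the right, and the *P4ha2* to *P4ha1* ratio stays near 0 in all 4 libraries.

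In shares of the summed RPKM of a family, *Pfkl* made up 52.8% and 43.7% of phosphofructokinase transcripts in the WT-labelled libraries and 30.1% and 35.1% in the KO-labelled ones, where the platelet-type *Pfkp* was the most abundant at 55.7% and 48%. *Slc16a1* went from 79.7% and 81.5% of the 3 transporters to 59.1% and 57.2%, with *Slc16a3* at 31.3% and 37.4%. *Ldha* went from 94.7% and 93.4% to 87.3% and 89.6% of its pair. *Hk3* went from 36.3% and 40% of the hexokinases to 51% and 52.2%. With the longest transcript as gene length in place of all exons, the order of levels was the same in 6 of the 7 families, and in the hexokinases *Hk1* became the highest in the WT-labelled libraries (36.8%).

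Of the 6 HIF factors and oxygen sensors, 2 fell and 0 rose by edgeR or DESeq2 (0 by either also at an unadjusted p under 0.05). Over all genes tested, 15.4% were lower and 17.4% higher by edgeR, and 6 genes are too few to set against these shares. The transcripts of the factors themselves did not pass the test. *Hif1a* had 8243 and 9224 counts in the WT-labelled libraries and 9334 and 7278 in the KO-labelled ones, so the groups overlapped (log2 fold change 0.1, SE 0.22, adjusted p = 0.77). HIF-1α is controlled mainly as a protein, which these data do not show. *Epas1*, encoding HIF-2α, was low, at 111 and 116 counts against 100 and 131. *Arnt* (0.29, adjusted p = 0.33) and *Vhl* (0.03, adjusted p = 0.94) did not pass either. The hydroxylase genes *Egln1* and *Egln3*, themselves known HIF targets, were lower. Their relative *Egln2*, listed among the other HIF pathway genes, did not pass (log2 fold change -0.24, adjusted p = 0.48), and its groups overlapped. *Egln3* had 2302 and 2230 counts against 1079 and 1231 and fell by 0.81 (SE 0.21, adjusted p = 0.0051), and *Egln1* had 990 and 813 against 548 and 478 and fell by 0.64 (SE 0.22, adjusted p = 0.029).

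Of the 13 further HIF targets, 6 fell (46.2%) and 0 rose at an adjusted p under 0.05 by edgeR or DESeq2. Over all genes tested, 15.4% were lower and 17.4% higher by edgeR. At an unadjusted p under 0.05, 0 were higher by edgeR and 1 by DESeq2, *Kdm3a*. The median of their log2 fold changes was -0.52. *Adm* (chromosome 7, 110627661 to 110629820), the vasoactive peptide adrenomedullin, had 807 and 787 counts in the WT-labelled libraries and 292 and 257 in the KO-labelled ones, a fall by 1.37 (SE 0.23, adjusted p = 7.1e-05). *Car9*, the carbonic anhydrase that acidifies the surroundings of hypoxic cells, had 160 and 133 counts against 42 and 60 and fell by 1.36 (SE 0.34, adjusted p = 0.0041). *Higd1a*, a mitochondrial protein induced by hypoxia, had 1137 and 1008 counts against 337 and 516 and fell by 1.17 (SE 0.23, adjusted p = 0.00054). No KO-labelled library reached the lower of the WT-labelled values in these genes.

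*P4ha1* (chromosome 10, 59323296 to 59373304) and *P4ha2* encode the catalytic subunits of collagen prolyl 4-hydroxylase. *P4ha1* had 6542 and 6982 counts against 3307 and 2681 and fell by 1.01 (SE 0.22, adjusted p = 0.0013). *P4ha2* had 417 and 397 against 176 and 170 and fell by 1.07 (SE 0.26, adjusted p = 0.0029). Both serve collagen synthesis. Of the 7 fibroblast markers, 4 were lower in the same libraries, among them the collagen gene *Col3a1* (log2 fold change -0.93) and *Lum* (-1.62). The other 3 did not pass: the collagen genes *Col1a1* (-0.21, adjusted p = 0.5) and *Col1a2* (-0.28, adjusted p = 0.33), and *Pdgfra* (0.22, adjusted p = 0.51). The part of fibroblasts in these values was not tested.

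*Bnip3*, a receptor for the removal of mitochondria with 1 CACGTG in the stretch above, had 2795 and 2591 counts against 1501 and 1033 and fell by 0.91 (SE 0.23, adjusted p = 0.0037). Its relative *Bnip3l*, which clears mitochondria from maturing red cells, behaved otherwise: it had 5121 and 7782 counts in the WT-labelled libraries and 5451 and 3038 in the KO-labelled ones (log2 fold change -0.43, SE 0.28, adjusted p = 0.25), and the groups overlapped. The erythroid gene *Alas2*, which encodes the first enzyme of heme synthesis in red cells, ranked the libraries alike, with 26902 and 60458 counts against 34672 and 14512. So did *Bpgm*, the mutase that makes 2,3-bisphosphoglycerate in red cells and is listed among the other glycolysis genes, with 11619 and 25769 counts against 12870 and 5530. The neutrophil marker *S100a8* had this order too, with 3821 and 6024 counts against 4165 and 2692. Most neutrophil markers did not, among them *Cxcr2*, with 493 and 763 counts against 1201 and 681. Of the globin genes, *Hbb-bt* was at 0 in every library and *Hba-a1*, *Hba-a2* and *Hbb-bs* were too low to test. The part of red cell precursors in the *Bnip3l* and *Bpgm* values was not tested.

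**Figure D5:**
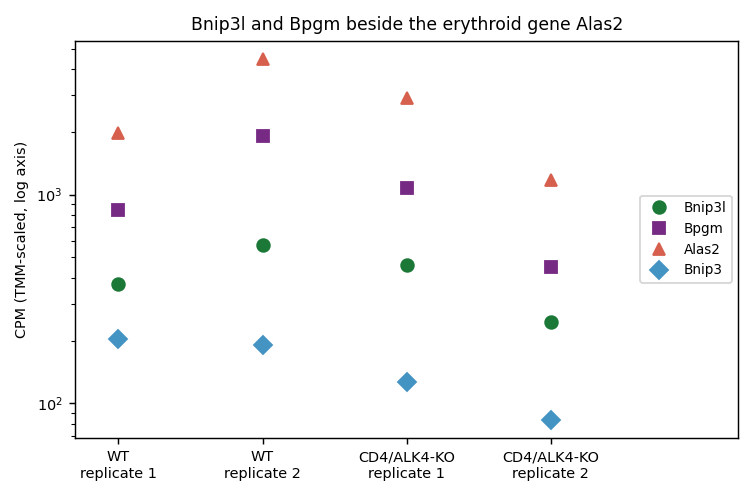
CPM on a log axis of *Bnip3l* and *Bpgm*, of the erythroid gene *Alas2*, and of *Bnip3*, in each library. *Bnip3l*, *Bpgm* and *Alas2* are highest in WT-labelled replicate 2 and lowest in KO-labelled replicate 2, whereas *Bnip3* is about equal in both WT-labelled libraries.

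The HIF targets that did not pass covered other functions. *Vegfa*, the vascular growth factor, had 1286 and 927 counts against 892 and 1011 (log2 fold change -0.05, SE 0.22, adjusted p = 0.89). *Ndrg1*, a stress and differentiation gene, had 2483 and 1979 against 1193 and 1591 (-0.52, SE 0.22, adjusted p = 0.075, or 0.041 with upper quartile scaling). *Kdm3a*, a histone demethylase, had 1697 and 1938 against 2289 and 2091, which did not overlap, yet did not pass (0.44, SE 0.21, adjusted p = 0.12). *Ddit4*, an inhibitor of mTOR signaling (0.13), *Mxi1*, an antagonist of MYC (-0.4), and *Ankrd37* (-0.05) had adjusted p-values from 0.18 to 0.91.

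Genes of the same pathways outside the 45 were counted in lists of known members. Of 35 other glycolysis genes, 26 could be tested, 3 rose and 1 fell, with a median log2 fold change of -0.11. The higher ones were *Galm*, which interconverts the forms of galactose and glucose (log2 fold change 1, adjusted p = 0.0091), *Pdp2*, the phosphatase that opposes PDK1 (0.83, adjusted p = 0.036), and *Slc16a6*, a relative of the monocarboxylate transporters (0.69, adjusted p = 0.039), and the lower one was *Bsg*. Of the other HIF pathway genes, 34 were tested, 6 rose and 11 fell, with a median of -0.2. The 3 lower genes with the smallest adjusted p were *Plod1* (-1.39, adjusted p = 0.00016) and *Plod2* (-1.02, adjusted p = 0.0012), lysyl hydroxylases of collagen, and *Fam162a* (-1.22, adjusted p = 0.00024), a mitochondrial HIF target. The 3 higher genes were *Rora*, a nuclear receptor of T helper and innate lymphoid cells (1.88, adjusted p = 2.3e-06), *Arnt2*, a relative of *Arnt* with 35 and 28 counts against 86 and 100 (1.72, adjusted p = 0.0019), and the chemokine receptor *Cxcr4* (0.69, adjusted p = 0.018). The shares lower and higher in this list were 32.4% and 17.6%, beside 15.4% and 17.4% of all genes. Among the other glycolysis genes tested they were 3.85% and 11.5%, so the lower share there stood under that of all genes. For both lists together they were 20% and 15%.

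With each library left out in turn, 8 of the 20 calls held in all 4 fits: *Slc2a3*, *Slc16a5*, *Pfkfb3*, *Pgk1*, *Slc16a1*, *Adm*, *P4ha1* and *Higd1a*. WT-labelled replicate 1 mattered most, since the most calls were lost without it. Calls over all genes tested were also fewest without it, so the loss was not particular to these genes. *Pfkl* (adjusted p = 0.18), *Tpi1* (0.11), *Pgam1* (0.1), *Pkm* (0.3), *Ldha* (0.061), *Egln1* (0.37), *Egln3* (0.089), *Bnip3* (0.057), *Car9* (0.093), *P4ha2* (0.052), *Hk3* (0.13) and *Pfkfb4* (0.19) no longer passed without that library. Their log2 fold changes kept their sign, as in *Ldha* (-0.89) and *Pkm* (-0.56). Without WT-labelled replicate 2, *Pgam1* (adjusted p = 0.14), *Egln1* (0.099), *Egln3* (0.065), *Hk3* (0.2) and *Pfkfb4* (0.059) did not pass. Without KO-labelled replicate 2, *Egln1* (0.055) and *Hk3* (0.15) did not, and without KO-labelled replicate 1 no call was lost. The log2 fold change of *Hk3* was 0.41 without KO-labelled replicate 2. Other genes passed when a library was left out. *Bnip3l* (-0.92, adjusted p = 1.7e-05) and *Aldoc* (0.99, adjusted p = 0.0089) did so without KO-labelled replicate 1. Without KO-labelled replicate 2, *Eno1* (adjusted p = 0.0012), *Ndrg1* (0.0031), *Mxi1* (0.011), *Aldoa* (0.017) and *Pfkm* (0.029) passed as lower and *Kdm3a* (0.027) and *Pdk1* (0.032) as higher. With 1 library left in a group, its spread was taken to be that of the other group.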

How the data were processed

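The 4 RNA-Seq libraries were grouped by the genotype and replicate number in their labels. The authors sequenced 75-base single-end reads from TruSeq RNA v2 libraries, which do not mark strand, and used HISAT2 for alignment to mm10. Reads were assigned to genes by HTSeq in its mode for non-empty intersections, and what the authors deposited are the raw counts, 1 value per symbol and not normalized. The annotation, the strand option and the tool versions are not given in the sources used here. Depth was 11823908 to 13943237 counts per library.

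The 45 genes and all lists were chosen with earlier results of these data known. Tests ran over all 13919 genes that passed filterByExpr, with edgeR 4.0.16 in R 4.3.3 (TMM scaling, robust quasi-likelihood fit, genotype as the only term, Benjamini-Hochberg adjustment), and a gene was called at an adjusted p under 0.05. The standard error (SE) was taken as the size of the log2 fold change over the root of the F statistic. CPM used TMM-scaled library sizes, and RPKM divided CPM by the kilobases of all exons of a gene in GENCODE M21 (GRCm38), from which gene positions come. Ratios of 2 genes were taken within a library after adding 0.5 to each count. Promoter windows came from RefSeq. The fit was tested on simulated data. Replicates differed by more than sampling noise (chi-square per degree of freedom 24 for the CD4/ALK4-KO pair, 13.3 for the WT pair), so each counts as 1 sample. Whether each came from separate animals is not stated beyond the words biological replicates.

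Values are given for every gene that passed and, in each role group, for the genes with the highest counts among the rest. Of other pathway genes up to 3 per direction with the smallest adjusted p are named. *Csf3r*, *Cxcr2*, *Csf1r*, *S100a8*, *Alas2*, *Bpgm*, *Egln2*, *Col3a1*, *Lum*, *Col1a1*, *Col1a2* and *Pdgfra* were named after their values were seen. The values of 1 marker gene are not reported here. Alternatives were other scalings (DESeq2 1.42.0 size factors, upper quartile, T cell receptor genes), no filter, at least 10 counts in every library, DESeq2's Wald test, the replicate number as a block, each library left out, 5 in place of 0.5 in ratios, and the longest transcript as gene length.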

Additional observations from a re-analysis of the deposited data

How the results depend on the processing

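All 15 lower and 5 higher calls were kept with DESeq2 size factors, upper quartile scaling, DESeq2's Wald test, no filter, and a minimum of 10 counts per library. Upper quartile scaling added *Eno1* (adjusted p = 0.036) and *Ndrg1* (0.041), 17 lower in all, and gave *Slc16a3* (-0.041) and *Vhl* (-0.039), neither called, a negative sign. Scaling to T cell receptor genes left 1 gene higher and 44 lower, with a median log2 fold change of -2.5, and turned 18 genes negative: *Slc2a3* (-0.93), *Hk1* (-2.3), *Hk3* (-1.6), *Gpi1* (-2.2), *Pfkp* (-2.1), *Aldoc* (-1.6), *Eno2* (-2.1), *Ldhb* (-2.2), *Slc16a3* (-2.3), *Pdk1* (-2), *Pfkfb3* (-1.2), *Pfkfb4* (-1.4), *Hif1a* (-2.3), *Epas1* (-2.2), *Arnt* (-2.1), *Vhl* (-2.3), *Ddit4* (-2.2) and *Kdm3a* (-1.9). By construction this scale sets the T cell receptor genes to no change, and on it 12986 of all 13919 genes tested were lower and 27 higher. With each library left out in turn, 3 to 6 genes were higher and 5 to 19 lower, and the median ran from -0.27 to -0.089. The genes that changed sign in these fits, none of them called, were *Hk1* (-0.27 to 0.39), *Hk2* (-0.41 to 0.054), *Gpi1* (-0.053 to 0.41), *Ldhb* (-0.072 to 0.34), *Slc16a3* (-0.073 to 0.14), *Hif1a* (-0.092 to 0.28), *Vhl* (-0.15 to 0.21), *Vegfa* (-0.27 to 0.19), *Ankrd37* (-0.25 to 0.16) and *Ddit4* (-0.01 to 0.28). With a library left out, the ratios *Egln3* to *Egln1* (-0.36 to 0.028), *Epas1* to *Hif1a* (-0.28 to 0.47) and *P4ha2* to *P4ha1* (-0.18 to 0.077), whose groups overlapped, changed sign, and the other 12 did not.

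Libraries with the same replicate number did not deviate alike from their group means (correlation -0.263). With 2 libraries per group this value mirrors that of the crossed pairing (0.263), so it cannot show whether samples were paired by design. With the replicate block, 14 genes were lower and 4 higher, and *Egln1* (adjusted p = 0.1) and *Hk3* (adjusted p = 0.067) did not pass. The crossed replicate block, added after seeing the data, called 8 genes higher and 19 lower. Depth limits mainly *Eno2*, *Car9*, *Aldoc*, *Epas1* and *Slc16a5*, the genes with the fewest counts.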
